A study of Mus musculus with 4 samples.

Results

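The Id genes Id1, Id2, Id3 and Id4 were followed in mouse embryonic stem cells given bone morphogenetic protein 2 (BMP-2). The members were all probe sets, the groups of short probes that together report a transcript, whose only gene symbol in the platform annotation is Id1, Id2, Id3 or Id4. This gave 8 probe sets for 4 genes, out of 34945 probe sets with 1 symbol for 18193 genes. Id1 and Id3 have 1 probe set each, and Id2 and Id4 have 3 each. No probe set lists an Id gene together with another gene.

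Id proteins hold a helix-loop-helix domain, through which they pair with other proteins, but lack the basic region that contacts DNA. They bind E proteins such as the products of Tcf3, Tcf4 and Tcf12 and keep them from forming active dimers with basic helix-loop-helix (bHLH) factors that drive differentiation. BMP ligands bind type I and type II serine/threonine kinase receptors, which phosphorylate SMAD1, SMAD5 and SMAD9. These enter the nucleus with SMAD4, and Id genes are among their best known direct targets. In mouse embryonic stem cells Id proteins are known to help hold back neural differentiation when BMP acts together with leukaemia inhibitory factor.

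The study used 4 Affymetrix arrays of E14Tg2A.4, a feeder-independent, Hprt-deficient subline of the E14 line. The cells of 2 arrays had received BMP-2 for 1 h at a concentration of 25 ng/ml, and those of the other 2 arrays received none over the same time. All 4 samples are of this 1 line, and the labels name no other agent or genetic change. Whether replicates were separate cultures is not stated in the labels, so the p-values cover only the spread between these 4 arrays, which may be technical in origin. In RNA from whole cultures, fewer cells that express a gene and less of its RNA per cell cannot be told apart.

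Of 45101 probe sets, 27022 were bright enough over the 4 arrays to be tested, among them all 8 Id probe sets. For the dimmest, an Id2 probe set, this rested on its BMP-2 arrays. Median signals were 81.8 (BMP-2) and 82.4 (untreated) on the arrays of replicate 1, and 94.9 and 94.6 on those of replicate 2. Log2 signals of the tested probe sets correlated at 0.985 between replicates in both groups and at 0.984 to 0.987 between a BMP-2 and an untreated array. By the SD of their log2 differences, arrays of equal replicate number were the most alike, at 0.345 (replicate 1) and 0.353 (replicate 2). Replicates of a group stood at 0.373 (BMP-2) and 0.370 (untreated). The labels do not pair the arrays, and the main fit used no replicate block. Control probe sets for 18S ribosomal RNA stood apart on untreated replicate 2, at 3.94 to 6.11 times the next highest array, and values without that array are given where they change a result. Of 10 pluripotent stem cell markers all were tested, and their mean signals with BMP-2 ran from 3476 for Esrrb to 21990 for Dppa5a. Of 10 fibroblast markers, which would show feeder cells, 2 were bright enough to be tested. The summed signal of the fibroblast list was 688 and 754 on the BMP-2 arrays, against 764 and 747 on the untreated arrays. Of 12 markers of differentiated lineages 8 were tested, with mean signals with BMP-2 of 101 to 503, and the summed signal of that list was 3037 and 3320 with BMP-2, against 2935 and 3092 without. Its part in the Id values was not tested.

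Promoter windows from RefSeq (build GRCm38.p6) were matched by symbol for 3 of the 4 genes, and Id1 has no entry. They run from 250 bases before the annotated start of transcription to 50 bases after it, and are shown as a description. No Id4 probe set was called, but all 3 were higher with BMP-2. The windows therefore do not set genes that rose against a gene that did not. Capitals mark matches, on either strand, to GGCGCC or GGAGCC, GC-rich elements of the kind bound by SMAD1 and SMAD5, or to CAGAC, the core of the SMAD-binding element. GTCTAGAC, the palindromic form of that element, and TGACGTCA, the cAMP response element, were searched for as well and have no match in these windows.
Id2, chr12:25096043-25096342, minus strand: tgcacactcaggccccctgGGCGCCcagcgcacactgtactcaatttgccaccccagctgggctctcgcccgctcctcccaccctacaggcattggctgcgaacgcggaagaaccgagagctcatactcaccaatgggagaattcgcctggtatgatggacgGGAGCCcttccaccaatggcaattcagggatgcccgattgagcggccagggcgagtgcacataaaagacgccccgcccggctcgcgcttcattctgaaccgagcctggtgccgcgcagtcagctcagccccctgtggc
Id3, chr4:136143572-136143871, plus strand: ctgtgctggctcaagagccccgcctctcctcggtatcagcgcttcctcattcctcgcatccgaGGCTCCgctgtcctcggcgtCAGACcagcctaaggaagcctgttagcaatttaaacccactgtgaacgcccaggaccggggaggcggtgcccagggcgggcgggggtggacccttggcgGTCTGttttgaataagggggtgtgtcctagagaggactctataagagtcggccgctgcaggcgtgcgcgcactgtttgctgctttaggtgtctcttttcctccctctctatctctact
Id4, chr13:48260866-48261165, plus strand: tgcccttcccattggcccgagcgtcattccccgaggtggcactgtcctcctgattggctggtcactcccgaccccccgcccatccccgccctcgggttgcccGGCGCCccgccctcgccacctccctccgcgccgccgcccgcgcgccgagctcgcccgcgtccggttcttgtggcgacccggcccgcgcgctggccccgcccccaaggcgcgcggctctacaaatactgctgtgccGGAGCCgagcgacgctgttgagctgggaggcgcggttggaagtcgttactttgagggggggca
The Id2 window holds GGCGCC with its first base at -231 from the start site and GGAGCC at -88. The Id4 window holds GGCGCC at -148 and GGAGCC at -13. The Id3 window holds no GGCGCC, has GGAGCC on the opposite strand at -187, and has CAGAC at -167 and, on the opposite strand, at -68. Over all 32851 windows of this length, 11.9% hold GGCGCC, 30.8% GGAGCC, 49.6% CAGAC, 0.213% GTCTAGAC and 1.79% TGACGTCA. The Id windows are rich in G and C, at 63.3% for Id2, 60% for Id3 and 73.3% for Id4, against a median of 52.7% over all windows. A match is a description of the letters and not a bound site.

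The design sets the treated arrays against the untreated ones, and asks here how the Id transcripts stood after 1 h of BMP-2. Every Id probe set read higher on both BMP-2 arrays than on either untreated array, which also holds for 15.9% of all tested probe sets. Id1, Id3 and Id2 on 2 of its 3 probe sets rose by the limma fit over all tested probe sets, with a Benjamini-Hochberg adjusted p under 0.05. These 4 of 8 Id probe sets stand beside 0.0185% of all tested probe sets, or 5 of 27022. The other called probe set belongs to Pom121, a membrane protein of the nuclear pore, at 0.78 log2. No Id4 probe set passed. All 4 calls rest on letting the spread of a probe set follow its signal: without that trend 0 of the 27022 passed limma, and 1023 had an unadjusted p under 0.05. With 1 array left out 16 (untreated replicate 2), 38 (untreated replicate 1), 93 (BMP-2 replicate 1) or 141 (BMP-2 replicate 2) passed, of which 4, 5, 5 and 6 were Id probe sets. After median centring 116 passed, 72 higher and 44 lower, of which 5 were Id probe sets, all higher.

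**Figure D1:**
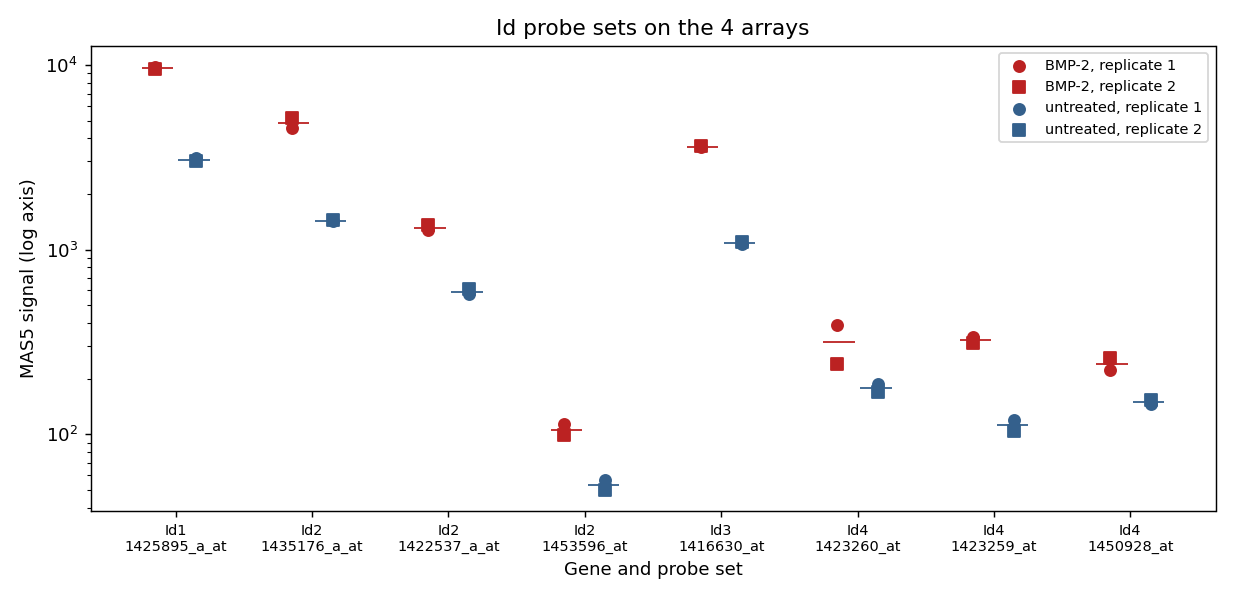
MAS5 signals (log axis) of the 8 Id probe sets on each of the 4 arrays, with BMP-2 in red and untreated in blue. Circles are replicate 1, squares replicate 2 and short lines the group means. In every probe set both red points lie above both blue points, and the widest gap between replicates is that of Id4 probe set 1423260_at with BMP-2 (392 and 240).

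Id1, the family member whose response to BMP is widely used as a readout of SMAD1/5 activity, was measured by probe set 1425895_a_at. Its signal was 9738 and 9495 on the BMP-2 arrays, against 3129 and 3007 on the untreated arrays. The groups lie far apart and the replicates close together, since each BMP-2 array read 3.03 to 3.24 times each untreated array. The rise was 1.65 ± 0.07 log2 (SE, limma adjusted p = 2.0e-05). That SE comes mostly from other probe sets of like signal. The spread of the Id1 probe set itself was 0.03 log2, and the moderated spread used in the test 0.07 log2. With BMP-2 the Id1 probe set was brighter than 98.5% of probe sets on the array, and without it brighter than 94.1%. Among the 1462 tested probe sets at least as bright over the 4 arrays, it had the largest log2 difference.

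Id3, which like Id1 is known in mice for roles in vessel growth of the developing brain, was measured by probe set 1416630_at. The signal was 3578 and 3620 with BMP-2, against 1071 and 1095 without. Replicates of Id3 differed by 0.02 log2 with BMP-2 and by 0.03 log2 without, the smallest within-group gap of any Id probe set with BMP-2. The rise was 1.73 ± 0.09 log2 (SE, limma adjusted p = 3.6e-05), and each BMP-2 array read 3.27 to 3.38 times each untreated array. Most of that SE comes from other probe sets of like signal, since the spread of the Id3 probe set itself was 0.02 log2 and the moderated spread used in the test 0.09 log2. The probe set was brighter than 94.9% of all probe sets with BMP-2 and than 85.9% without.

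Id2, which in mice is known for its part in the development of lymphoid tissue and mammary epithelium, was measured by 3 probe sets with 3 different target sequences. The brightest, 1435176_a_at, read 4545 and 5184 with BMP-2, against 1429 and 1442 without. Here the BMP-2 arrays differed by 0.19 log2 and the untreated arrays by 0.01 log2, and the groups stayed well apart. The rise was 1.76 ± 0.09 log2 (SE, limma adjusted p = 3.6e-05). The middle probe set, 1422537_a_at, read 1277 and 1351 with BMP-2, against 573 and 608 without, a rise of 1.15 ± 0.11 log2 (limma adjusted p = 0.0085). The dimmest, 1453596_at, read 113 and 98.3 with BMP-2, against 56.3 and 49.8 without. Its groups did not overlap, but its untreated signals lie near 53.0, the signal below which probe sets were not tested, and its difference of 0.99 ± 0.32 log2 did not pass (limma adjusted p = 1.00, unadjusted p = 0.0119).

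The Id2 probe sets thus differed in the size of the response. The log2 difference of 1435176_a_at exceeded that of 1422537_a_at by 0.60 (95% interval 0.28 to 0.93, taking the errors of the probe sets as independent) and that of 1453596_at by 0.76 (0.01 to 1.51). In both pairs the log2 ratio of the probe sets was higher on both BMP-2 arrays than on both untreated arrays. Between 1422537_a_at and 1453596_at the difference was 0.16 (-0.60 to 0.92), and the ratios overlapped. An exact permutation of 2 against 2 arrays cannot give a two-sided p below 0.33, and gave that value for the pairs with 1435176_a_at (0.500 after adjustment over 6 pairs of probe sets). On the fold scale the 3 probe sets gave 3.38 (95% interval 2.93 to 3.91), 2.22 (1.87 to 2.64) and 1.99 (1.21 to 3.28). The factor by which Id2 rose therefore depended on the probe set. All 3 read higher with BMP-2, but the dimmest was lifted clear of the limit for testing by its BMP-2 arrays.

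**Figure D2:**
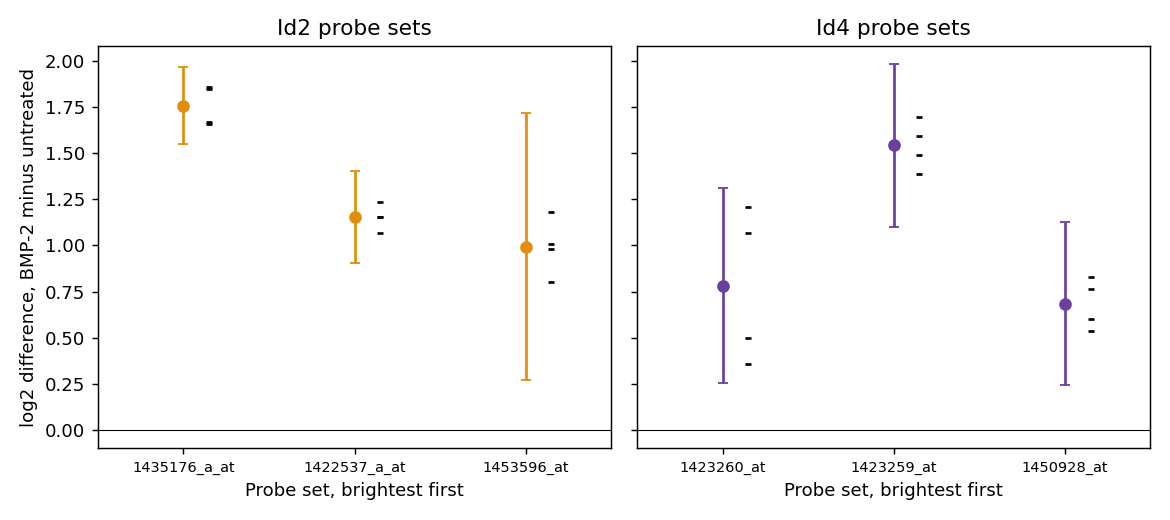
Log2 differences, BMP-2 minus untreated, of the 3 Id2 and the 3 Id4 probe sets, brightest on the left within each gene. Points with bars are the fitted difference with its 95% interval, and the dashes beside them are the log2 ratios of each BMP-2 array to each untreated array. Id2 probe set 1435176_a_at (1.76) lies above the other Id2 probe sets (1.15 and 0.99), and Id4 probe set 1423259_at (1.54) above the other Id4 probe sets (0.78 and 0.68).

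Id4, known in mice for roles in neural stem cells and, unlike the other members, often described as an antagonist of their activity, gave lower signals on its brightest probe set than the other members did on theirs. Its 3 probe sets share 1 target accession in the platform annotation and so may report parts of the same sequence. Probe set 1423260_at read 392 and 240 with BMP-2, against 188 and 170 without. The BMP-2 arrays thus differed by 0.71 log2, nearly as much as the groups did (0.78 ± 0.24 log2, SE, limma adjusted p = 1.00, unadjusted p = 0.0082). Probe set 1423259_at read 336 and 313 with BMP-2, against 119 and 104 without. Its BMP-2 arrays differed by 0.10 log2 and its untreated arrays by 0.20 log2, the widest untreated gap of any Id probe set. The difference between the groups, 1.54 ± 0.20 log2, narrowly missed the threshold (limma adjusted p = 0.056). Probe set 1450928_at read 222 and 259 with BMP-2, against 146 and 153 without (0.68 ± 0.20 log2, limma adjusted p = 1.00, unadjusted p = 0.0063). All 3 gave the same direction, and none overlapped between the groups. Both BMP-2 arrays also lay above both untreated arrays for 15.9% of all tested probe sets.

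For Id4 the difference depended on the array left out and the call on the setting. Probe set 1423260_at differed by 0.43 log2 without BMP-2 replicate 1 and by 1.14 log2 without BMP-2 replicate 2. With all 4 arrays, probe set 1423259_at passed with the filter at the 60th percentile (limma adjusted p = 0.048) and with the replicate block (0.024). It also passed after median centring (7.7e-09), a fit that gave almost no weight to a probe set's own spread. It did not pass with a pseudocount, under quantile normalization, without the filter or without the variance trend (limma adjusted p 0.051 to 0.859). Its log2 difference stayed between 1.35 and 1.64 over all 11 alternative settings. Probe set 1450928_at passed in 0 of 11 (adjusted p 0.224 to 1.00), and had an unadjusted p of 0.0063 in the fit given above. Within Id4, the log2 difference of 1423259_at exceeded that of 1450928_at by 0.86 (95% interval 0.23 to 1.48), and that of 1423260_at was lower than that of 1423259_at by 0.76 (interval of the difference -1.45 to -0.07). The difference between 1423260_at and 1450928_at was 0.10 (-0.59 to 0.79). Intervals with 1423260_at use its moderated spread of 0.24 log2, which is below its own spread of 0.36 log2. By exact permutation each of these has a p of 0.33 or above.

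**Figure D3:**
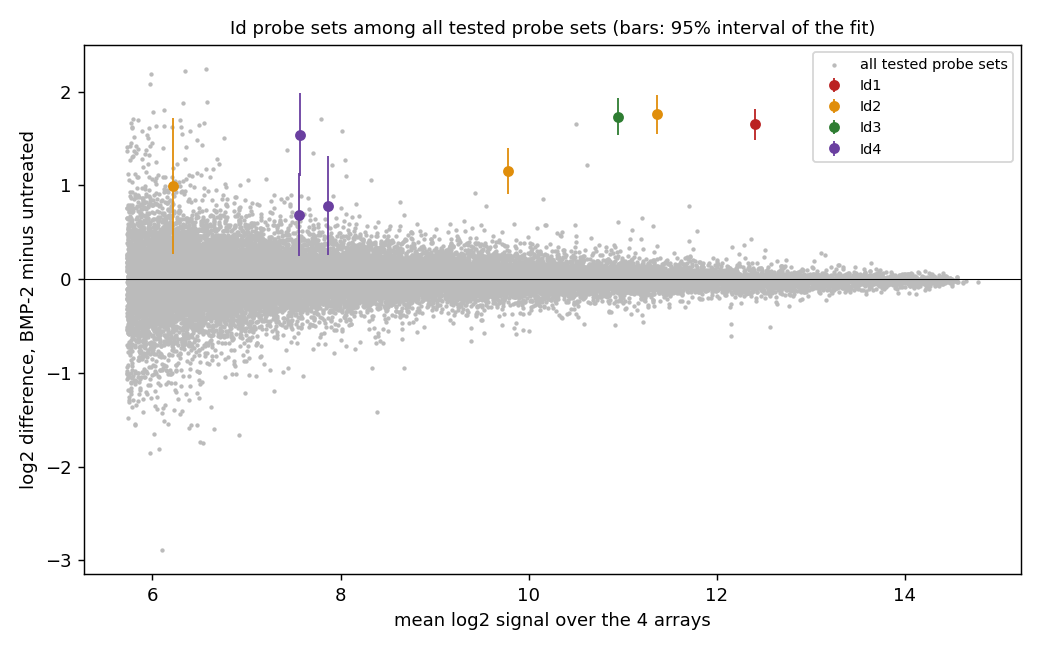
Log2 difference, BMP-2 minus untreated, against the mean log2 signal over the 4 arrays for the 27022 tested probe sets (grey), with the Id probe sets in colour and the 95% interval of the fit as bars. The scatter of grey points narrows as signal rises. Id1, Id3 and the brightest Id2 probe set lie at 1.65 to 1.76, where few grey points reach 1, and the Id4 probe sets lie at low signal where the grey scatter is wide.

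By log2 difference alone, the brightest Id2 probe set ranked 9, Id3 ranked 10 and Id1 ranked 18 among 27022, the Id4 probe sets 1423259_at, 1423260_at and 1450928_at ranked 31, 224 and 311, and the dimmer Id2 probe sets 1422537_a_at and 1453596_at ranked 72 and 109. In all, 1.15% of tested probe sets differed by at least as much as the smallest Id difference. Set only against tested probe sets that are at least as bright as itself, the brightest Id2 probe set ranked 1 of 3055, Id3 ranked 2 of 3950 behind it, and the Id2 probe sets 1422537_a_at and 1453596_at ranked 6 of 7257 and 52 of 23789. The Id4 probe sets 1423259_at, 1423260_at and 1450928_at ranked 7 of 16034, 17 of 14677 and 30 of 16065.

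On the linear scale the gain, the mean signal with BMP-2 minus the mean without, was 6549 ± 192 for Id1 (SD, the spreads of both groups combined, n = 2 each). It was 3429 ± 452 for the brightest Id2 probe set and 2516 ± 34.3 for Id3. Among 27022 tested probe sets these were the 3 largest gains in signal, and the largest outside the family was 1811. Id1 and Id2 kept ranks 1 and 2 under quantile normalization, under median centring and without any 1 array. Id3 ranked 3 under both normalizations and 3 to 5 when an array was left out. Id4 gained 137 ± 109 on its brightest probe set, 213 ± 19.7 on 1423259_at and 91.1 ± 27.0 on 1450928_at, and the other Id2 probe sets gained 723 ± 58.4 and 52.6 ± 11.4. The gain of the brightest Id4 probe set was 61.3 without BMP-2 replicate 1 and 214 without BMP-2 replicate 2. By exact permutation each of the 8 gains has a two-sided p of 0.33, the smallest that 2 against 2 arrays allow. A signal depends on the probes as well as on the transcript, so the size of a gain does not compare transcript numbers between genes.

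Summed over the brightest probe set of each gene, the Id signal was 18253 and 18540 with BMP-2, against 5817 and 5713 without, a ratio of 3.19 between the means of the groups. Id1 supplied 53.3% and 51.2% of that sum on the BMP-2 arrays, against 53.8% and 52.6% on the untreated arrays. Id2 supplied 24.9% and 28.0% with BMP-2, against 24.6% and 25.2% without. For both genes the groups overlapped (exact permutation p = 0.67 for each, with the same value after adjustment over the 4 genes). Id3 supplied 19.6% and 19.5% with BMP-2, against 18.4% and 19.2% without, and Id4 2.15% and 1.29% with BMP-2, against 3.22% and 2.97% without. The Id3 and Id4 shares did not overlap between groups (exact permutation p = 0.33 for each, 0.67 adjusted). The change in share, BMP-2 minus untreated, was 0.77 percentage points for Id3 and ran from 0.40 (without untreated replicate 1) to 1.15 (without untreated replicate 2). For Id4 it was -1.38 points and ran from -1.80 (without BMP-2 replicate 1) to -0.95 (without BMP-2 replicate 2). The size of this fall depends on the probe set that stands for Id4. By the fit 1423260_at rose 1.72-fold, whereas 1423259_at rose 2.91-fold, nearer to the ratio of the sums. Of the summed gain, 51.8% came from the Id1 probe set, 27.1% from Id2, 19.9% from Id3 and 1.09% from Id4. These are shares of signal and not of transcripts.

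**Figure D4:**
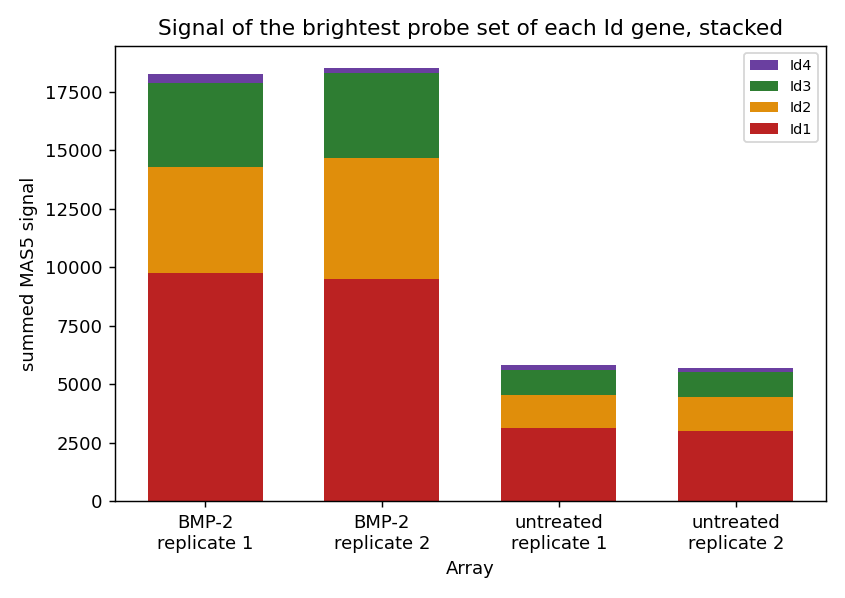
Stacked MAS5 signals of the brightest probe set of Id1, Id2, Id3 and Id4 on each array, with the BMP-2 arrays on the left. The sums are 18253 and 18540 with BMP-2 and 5817 and 5713 without. Id1 makes up 51.2% to 53.8% of each bar. Id4, the thin top layer, drawn by 1423260_at, makes up 2.15% and 1.29% with BMP-2 and 3.22% and 2.97% without.

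Whether the genes responded by different factors was asked for 6 pairs of genes on their brightest probe sets. The log2 difference of Id1 was lower than that of Id2 by 0.11 (difference -0.11, 95% interval -0.37 to 0.16) and lower than that of Id3 by 0.08 (difference -0.08, interval -0.34 to 0.17). Id2 exceeded Id3 by 0.02 (-0.26 to 0.31). All 3 intervals hold 0, which does not show that the responses were equal. Against Id4 probe set 1423260_at, Id1, Id2 and Id3 differed by 0.87 (0.31 to 1.42), 0.98 (0.41 to 1.54) and 0.95 (0.39 to 1.52) log2 more. Without BMP-2 replicate 1 these were 1.20, 1.43 and 1.31, and without BMP-2 replicate 2 they were 0.53, 0.53 and 0.59. With the mean of all probe sets of a gene Id1, Id2 and Id3 exceeded Id4 by 0.65, 0.30 and 0.73. Against Id4 probe set 1423259_at, a choice made after its values were seen, they differed by 0.11 (-0.36 to 0.58), 0.22 (-0.27 to 0.70) and 0.19 (-0.29 to 0.67) more. The intervals, which take the errors of the probe sets as independent, thus lay above 0 against 1423260_at and held 0 against 1423259_at. Those against 1423260_at use its moderated spread of 0.24 log2, which is below its own spread of 0.36 log2. Exact permutation gave p from 0.33 to 1.00 over the 6 pairs, and 0.500 to 1.00 after adjustment.

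The other genes of the pathway are given by lists, each gene by its brightest tested probe set. No gene of the 5 lists passed over all tested probe sets, and the median difference over all tested probe sets was 0.01 log2. Of 8 BMP ligand genes 4 were tested, 2 higher and 2 lower with BMP-2 (median 0.02 log2). Bmp4, a ligand that embryonic stem cells make themselves, read 892 and 832 with BMP-2, against 1141 and 1091 without (-0.37 ± 0.11 log2, SE, limma adjusted p = 1.00). Of 6 receptor genes 4 were higher and 2 lower (median 0.02 log2). Bmpr1a, a type I receptor for BMP-2, differed by 0.24 ± 0.11 log2. Of 4 SMADs that carry the signal 3 were tested, all higher (median 0.13 log2). Smad1 read 873 and 825 with BMP-2, against 653 and 647 without, or 0.38 ± 0.12 log2 (limma adjusted p = 1.00). Each of these differences, by the brightest probe set of a gene, is smaller than that of any Id probe set. The other tested probe set of the receptor gene Acvr2a differed by 0.70 log2, against -0.10 on its brightest. That is above the lowest Id probe set, at 0.68 log2. Other tested probe sets of the receptor gene Acvr1 differed by 0.58 and -0.28 log2.

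The list of SMAD feedback genes and inhibitors, of which 7 of 8 were tested, had 6 genes higher and 1 lower and a median of 0.43 log2. Smad6, an inhibitory SMAD that blocks SMAD1, read 386 and 435 with BMP-2, against 171 and 168 without (1.27 ± 0.17 log2, limma adjusted p = 0.062). Smad7, an inhibitory SMAD that acts at the receptors, read 2956 and 2984 with BMP-2, against 1970 and 1803 without (0.66 ± 0.09 log2, limma adjusted p = 0.064). The other tested Smad7 probe set differed by 0.16 log2. The differences of Smad6 and of the brighter Smad7 probe set are smaller than those of Id1, Id3 and the brightest Id2 probe set, and that of Smad6 exceeds those of the dimmer Id2 probe sets. Bambi, a decoy receptor, differed by 0.59 ± 0.16 log2 and Skil, a SMAD co-repressor, by 0.43 ± 0.08 log2.

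The partners that Id proteins bind or whose dimers they block lay in both directions. Of 14 genes for E proteins and bHLH factors 10 were tested, 6 higher and 4 lower, with a median of 0.07 log2. Tcf3, which encodes the E proteins E12 and E47, read 3390 and 3421 with BMP-2, against 3579 and 4329 without (-0.21 ± 0.10 log2, limma adjusted p = 1.00). Its groups did not overlap, but the untreated arrays differed more from each other than the lower untreated array did from the BMP-2 arrays. The other tested Tcf3 probe sets differed by -0.29 and -0.24 log2. Tcf4 and Tcf12, the other E protein genes, differed by 0.08 ± 0.11 and 0.06 ± 0.12 log2. Other tested probe sets of Tcf4 ran from -0.32 to 0.23 log2, and that of Tcf12 differed by 0.08 log2. Neurod1, a neuronal bHLH factor, read 1361 and 1303 with BMP-2, against 1731 and 1532 without (-0.29 ± 0.10 log2). Mesp1, a bHLH factor of early mesoderm, differed by 0.55 ± 0.29 log2 at signals of 108 and 119 with BMP-2, against 69.7 and 86.3 without.

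**Figure D5:**
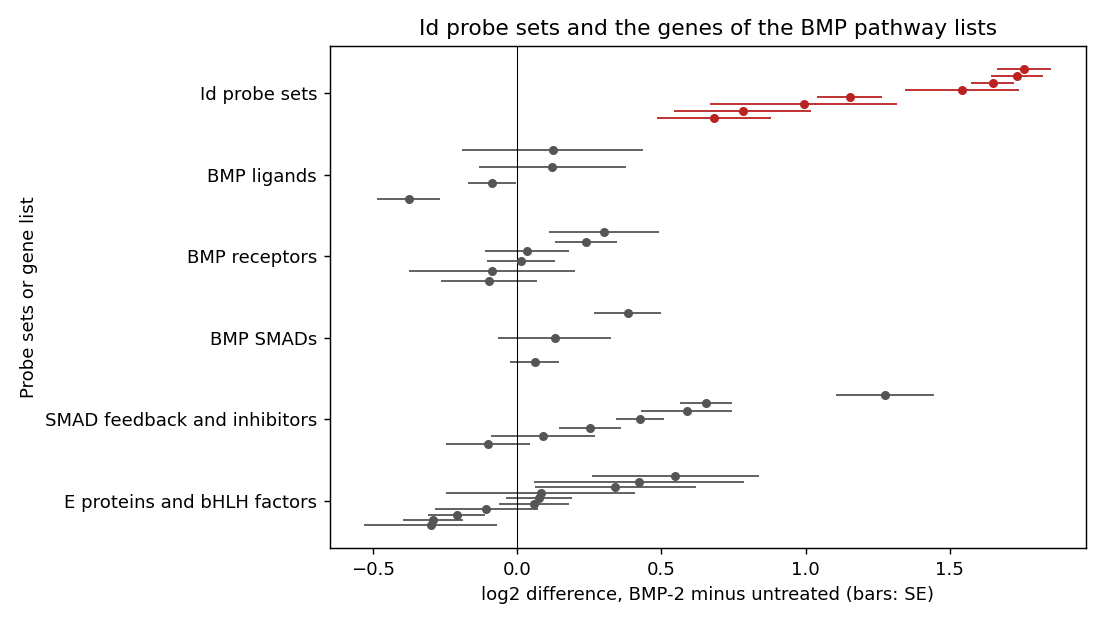
Log2 differences, BMP-2 minus untreated, with SE bars, of the 8 Id probe sets (red, top) and of the tested genes of 5 pathway lists (grey). The Id probe sets run from 0.68 to 1.76. Of the other genes, each drawn by its brightest tested probe set, the highest is Smad6 at 1.27. The ligands, receptors and signalling SMADs lie between -0.37 and 0.38. The other tested probe set of the receptor gene Acvr2a, at 0.70, is not drawn.

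The genes most like Id1, Id2 and Id3 were found by the Euclidean distance, over the 4 arrays, between log2 signals centred on each probe set's own mean and the mean centred profile of the brightest Id1, Id2 and Id3 probe sets. Over 22975 tested probe sets of other genes the median distance was 1.72, and the brightest probe sets of Id1, Id2 and Id3, which form the profile, lay at 0.10, 0.10 and 0.04. Id4 probe set 1423259_at lay at 0.25, nearer than any of the 22975. The nearest 5 were those of Crispld2 at 0.32, Hs3st2 at 0.40, Mrpl17 at 0.41, Smad6 at 0.45 and Sugp2 at 0.47. None of the 5 passed the limma fit (adjusted p 0.062 to 1.00). Crispld2 read 147 and 115 with BMP-2, against 38.9 and 35.7 without, so its untreated signals lie below the limit of 53.0, as do those of Mrpl17 and Sugp2. Other tested probe sets of Crispld2 (-0.15 log2), Hs3st2 (-0.52), Mrpl17 (-0.17 and -0.37) and Sugp2 (0.09 and -0.18) did not show the difference. Smad6 has no other tested probe set. The other Id4 probe sets lay at 1.08 and 1.04, and the other Id2 probe sets at 0.56 and 0.75.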

How the data were processed

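Per the labels' protocols, 4 samples of total RNA were turned into biotin-labelled cRNA for Affymetrix arrays. The deposited intensity signals per probe set were made by the authors with MAS5, per the submitters' processing notes, and the version is not given in the sources used here. Their 2%-trimmed mean is 500 on each array, so they were scaled within arrays. Samples were grouped by title. After 64 control probe sets were left out, the log2 of the signal was used without a pseudocount, and probe sets were kept with a mean log2 signal above its 40th percentile (5.73, a signal of 53.0). Array medians lay within 0.21 log2, under a limit of 0.3, so no further normalization was applied. The BMP-2 arrays were set against the untreated ones in R 4.3.3 by limma 3.58.1 (eBayes after lmFit, variance following signal, two-sided, no replicate block), with p adjusted by Benjamini-Hochberg over 27022 probe sets. Residual degrees of freedom were 2 and prior ones 7.98. The fit was run on simulated data whose spreads were drawn around the fitted trend, so that run cannot test the trend itself. Intervals are at 95%. Single values were compared by exact permutation over arrays. The number of arrays limits the precision.

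The members and lists were chosen with earlier results of these data known. All Id probe sets are named, then every other called gene, up to 4 genes of each pathway list with the smallest p, and the 5 most alike genes. Tcf4 and Tcf12 were named beyond this rule, to complete the E proteins. No genome build is named by the files, and coordinates are those of the RefSeq promoter table. The alternatives changed the filter, the variance trend, the pseudocount (to 25.4), the normalization (quantile or median centring), the replicate block, the arrays used and the probe sets that stand for a gene.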

Additional observations from a re-analysis of the deposited data

How the results depend on the processing

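Each of the 8 Id probe sets was higher with BMP-2 under every alternative that tested it. The dimmest Id2 probe set was not tested with the filter at the 60th percentile. The filter, the trend and the replicate block leave the difference itself unchanged. A pseudocount or leaving out 1 array cannot reverse it, since no Id probe set overlapped between the groups. Median centring could not either, since it shifts all differences alike and the group medians differed by -0.0031 log2 (BMP-2 minus untreated). Quantile normalization left the direction as it was. With all 4 arrays, the 4 called Id probe sets passed in every alternative except that without the trend. Without the trend of variance on signal 0 Id probe sets and 0 of all probe sets passed limma (1023 at an unadjusted p under 0.05). The differences of Id1, Id3 and the brightest Id2 probe set, 1.65, 1.73 and 1.76 log2, then had an adjusted p of 0.859. Over all probe sets 116 passed after median centring, 8 with the filter at the 60th percentile and 11 with the replicate block, against 5. Without 1 array 16 to 141 passed over all probe sets and 4 to 6 Id probe sets, in fits that give the lone array of a group the spread of the others. Median centring and both fits without a BMP-2 array gave almost no weight to a probe set's own spread. Without 1 array the brightest Id4 probe set differed by 0.43 to 1.14 log2 and passed at 1.14, while those of Id1 (1.62 to 1.68), Id2 (1.66 to 1.85) and Id3 (1.72 to 1.75) stayed past the threshold.

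With the mean of all probe sets of a gene, the change in share of the summed signal was 0.16 percentage points for Id1 (against -0.93), -0.47 for Id2 (against 1.53) and 1.36 for Id3 (against 0.77), and the gain of Id2 was 1402. Without 1 array the change in share ran from -1.99 to 0.14 points for Id1 and from -0.0060 to 3.06 for Id2, and for Id3 and Id4 from 0.40 to 1.15 and from -1.80 to -0.95. The difference in response of Id1 minus Id2 turned to 0.35 log2 with the mean of all probe sets and ran from -0.22 to 0.0041 without 1 array. That of Id2 minus Id3 turned to -0.43 and ran from -0.062 to 0.11. The causes were not tested. Deviations from the group mean correlated at 0.15 across probe sets between arrays of equal replicate number. The labels do not pair the arrays, and with the replicate block 5 Id probe sets passed, against 4, the fifth being Id4 probe set 1423259_at (adjusted p = 0.0240). The dimmest Id2 probe set had an untreated mean of 53.0 and the largest moderated spread of the Id probe sets, 0.32 log2.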
